A study of Homo sapiens with 12 samples.

Results

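The genes described here are 10 transcription factors often grouped as quiescence factors of lymphocytes: the Krüppel-like factors KLF2, KLF3, KLF6, KLF9, KLF10, KLF11 and KLF13 and the forkhead factors FOXO1, FOXO3 and FOXO4. They were taken by gene name from a deposited table of 26318 genes, which held all 10, and all 10 passed the filter on low counts. The 12 poly(A) RNA libraries were taken as all from TMD8, as every title says, although a cell line label of the samples carries a number that runs upward from that name. TMD8 is an established human line of the ABC (activated B cell) type of diffuse large B cell lymphoma. There were 6 libraries with a scramble short hairpin RNA (shRNA), the control, and 6 with an shRNA against IRF4, all from cell pellets taken at 24 h. The cells of every library therefore carried an shRNA, and the line is a single tumour line. How many hairpins were used, how they were delivered and what the 24 h are counted from are not given in the sources used here. Library names split each group into 3 libraries of a series 1 and 3 of a series 2, a number whose meaning is not given either. The labels do not say that libraries came from separate cultures, so all p-values measure the spread between these libraries, which may be technical.

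KLF proteins bind GC-rich and CACCC-type DNA through zinc fingers at the carboxyl end, and differ in the part that recruits activators or corepressors. KLF2 keeps naive lymphocytes out of the cell cycle and maintains the S1P receptor S1PR1, which lets lymphocytes leave lymphoid tissue. FOXO proteins bind forkhead motifs and are regulated mainly after translation: AKT and SGK kinases, downstream of PI3K, phosphorylate them, and 14-3-3 proteins then hold them in the cytoplasm, so a transcript level says little about the amount of nuclear protein. In B cells FOXO1 is needed for early development and for the germinal centre dark zone. IRF4 is a transcription factor of activated B cells and plasma cells on which ABC lymphoma lines depend.

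Library totals were 31.3 to 38.2 times 1e6 estimated counts, so a gene with 3 counts, the limit that a count of 0 allows, stood at 0.0786 to 0.0959 CPM (counts per 1e6 counts of the library). IRF4 averaged 1481 ± 55.9 CPM (SD, n = 6) in the controls and 611 ± 101 (SD, n = 6) with IRF4 shRNA, a log2 fold change of -1.28 (SE 0.09, adjusted p = 1.41e-08). It was at 507 to 526 CPM in the IRF4 shRNA libraries of series 1 and at 689 to 716 in those of series 2. All 6 B cell markers listed were measured, with a summed level of 4530 to 5113 CPM in the controls and 6479 to 6814 with IRF4 shRNA. The deposited genes included 2 of 5 T cell, 2 of 3 NK cell, 4 of 5 myeloid and 4 of 5 epithelial markers listed. Summed T cell markers were at most 1.07 CPM in any library, NK cell markers at most 0.0327 and myeloid markers at most 1.75. Of the B cell markers CD79B was not called by edgeR (log2 fold change 0.02, adjusted p = 0.638) and the others were called higher. The T cell marker CD247 rose 5.05-fold to a mean of 0.676 CPM and the myeloid marker ITGAM 4.02-fold to 1.16. The myeloid markers CD14 (means of 0.216 and 0.205 CPM) and CSF1R (0.149 and 0.134) did not rise. CD3E and CD33 were at most 0.0307 CPM in any library. The epithelial list summed to 60.9 to 78.4 CPM in the controls and 20.8 to 34.0 with IRF4 shRNA, nearly all of it CDH1, while KRT18 was at 0 in all 12 libraries. The part of these marker changes in the results below was not tested. The rank correlation of gene GC content with deviation from the mean of the library's own group set control libraries 5 and 6 apart. It was 0.42 and 0.60 there, against -0.50 to -0.045 in the other controls. The factors' values without these libraries are also given.

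Over the 12 libraries 5 of the 10 factors rose with IRF4 shRNA (KLF6, KLF10, KLF11, FOXO3 and FOXO4), 2 fell (KLF13 and FOXO1) and 3 did not pass the test (KLF2, KLF3 and KLF9). The test was edgeR's quasi-likelihood test with Benjamini-Hochberg adjustment over all 16437 genes tested, at 0.05. By that rule 48.2% of all genes were called, 24.2% higher and 23.9% lower, and the 7 of 10 are read against that share. With scaling by library size alone, 63.9% of calls were higher, against 50.3% here. The median log2 fold change of the 10 was 0.21, beside -0.01 over all genes tested. Without control libraries 5 and 6, 8 of the 10 were called, 6 higher and 2 lower, KLF2 being the addition, while 51.8% of 16745 genes tested were called in that fit, 26.4% higher and 25.4% lower. The groups of 6 did not overlap for KLF6, KLF10, KLF11 and FOXO3, all higher with IRF4 shRNA, and for KLF13, which was lower. Such separation was seen in 30.8% of all genes. In bulk RNA, fewer cells expressing a gene and less RNA per cell cannot be told apart.

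**Figure D1:**
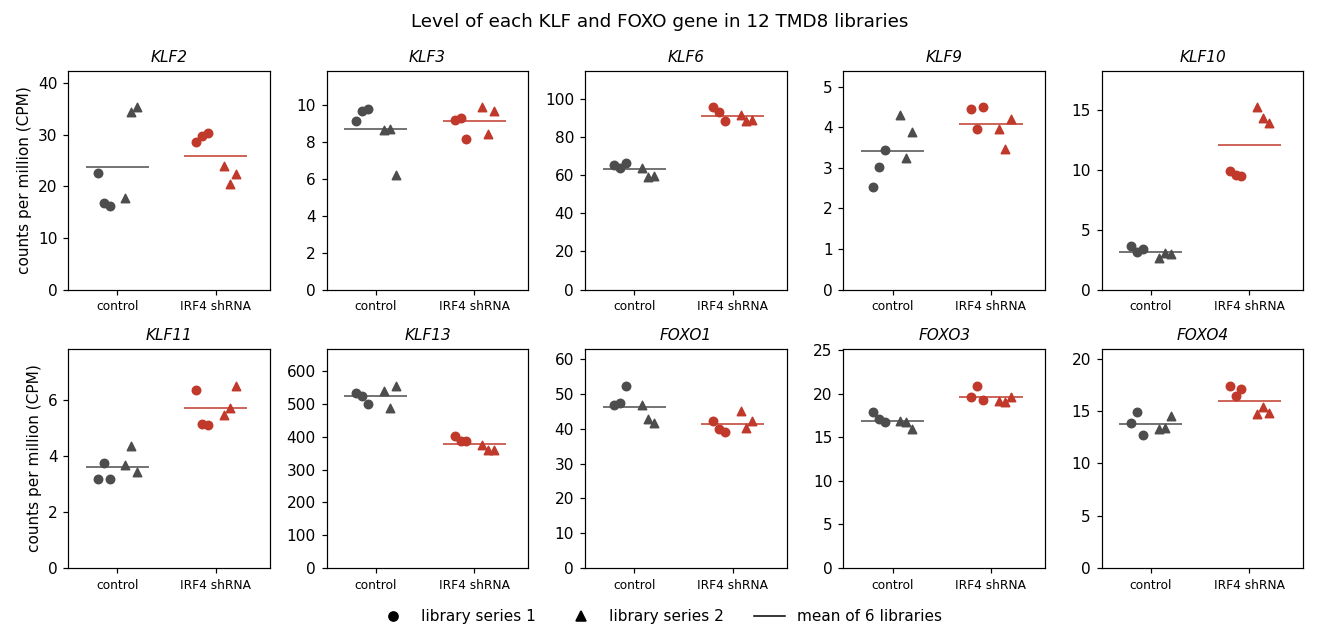
Level of each of the 10 factors in each of the 12 libraries, in CPM on TMM-scaled library sizes, with control and IRF4 shRNA libraries of series 1 and 2 marked separately and the group means drawn as lines. The groups are fully separated for KLF6, KLF10, KLF11, FOXO3 and KLF13, while the KLF2 values of the 2 groups interleave.

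Promoter sequences are shown for KLF2, KLF13, FOXO1 and FOXO4, the members whose RefSeq transcript start (GRCh38.p14) is the gene start of the deposited table. Each is the 250 bases before the start, 5′ to 3′ on the gene's own strand. They are shown because they differ in the sites an IRF, MEF2, AP-1 or KLF protein could read, and in their GC content. Capitals mark exact matches, on either strand, to GAAA and GAAA with 2 bases of any kind between them (a tandem IRF-type element), GGAA and GAAA spaced likewise (an ETS-IRF composite), GTAAACA (forkhead), CTA and TAG with 4 bases between them (MEF2), CACCC (KLF), TGANTCA (AP-1) and CACGTG (E-box). The IRF-type element and the composite can share bases, and GGGCGG (GC box) was counted but left in lower case.
KLF2, chr19:16324576-16324825, plus strand: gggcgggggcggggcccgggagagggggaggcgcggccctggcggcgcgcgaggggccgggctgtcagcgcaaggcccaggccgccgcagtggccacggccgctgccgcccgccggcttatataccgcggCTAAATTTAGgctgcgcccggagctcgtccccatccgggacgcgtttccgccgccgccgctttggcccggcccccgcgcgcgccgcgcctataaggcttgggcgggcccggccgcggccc
KLF13, chr15:31326585-31326834, plus strand: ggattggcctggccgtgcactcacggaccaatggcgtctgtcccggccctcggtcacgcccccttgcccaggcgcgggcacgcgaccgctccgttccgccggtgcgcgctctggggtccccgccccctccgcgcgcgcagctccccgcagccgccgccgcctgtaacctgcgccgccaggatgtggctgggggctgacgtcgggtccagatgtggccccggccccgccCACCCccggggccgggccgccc
FOXO1, chr13:40666642-40666891, minus strand: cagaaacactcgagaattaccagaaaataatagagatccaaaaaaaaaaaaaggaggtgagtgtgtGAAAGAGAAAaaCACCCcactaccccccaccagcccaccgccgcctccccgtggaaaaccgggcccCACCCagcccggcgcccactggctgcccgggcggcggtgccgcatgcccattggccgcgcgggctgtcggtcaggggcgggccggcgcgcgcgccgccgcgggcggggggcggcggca
FOXO4, chrX:71095601-71095850, plus strand: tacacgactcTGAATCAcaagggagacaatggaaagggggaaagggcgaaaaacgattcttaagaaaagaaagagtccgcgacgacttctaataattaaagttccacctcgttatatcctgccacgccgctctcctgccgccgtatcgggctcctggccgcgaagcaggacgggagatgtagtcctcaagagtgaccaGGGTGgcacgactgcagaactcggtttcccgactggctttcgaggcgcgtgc
In KLF2 the capitals are a MEF2 motif whose first base lies 120 bases before the start, in a window of 80.0% GC. The FOXO1 window has the tandem IRF-type element at 184 bases before the start, followed by CACCC at 172 and 118. The KLF13 window has a CACCC at 22 bases. The FOXO4 window has TGAATCA, a match to the AP-1 pattern with its free base as A, at 240 bases. It also has a CACCC on the opposite strand at 52. RefSeq windows were found for 8 of the 10 members, 12 windows in all, none of them for KLF3 or KLF10. Of these 12 windows 2 held the tandem IRF-type element, against 3.02% of all 35116 windows of the same length. Besides FOXO1 it was in a FOXO3 window whose start lies 28938 bases from the FOXO3 start of the deposited table. The ETS-IRF composite was in 0 of 12 against 2.41%, the forkhead motif in 0 against 2.98%, MEF2 in 2 against 2.36%, AP-1 in 2 against 6.57% and the E-box in 2 against 6.34%. The MEF2 matches were CTAAATTTAG in KLF2 and CTAGCGGTAG in a KLF11 window, and the AP-1 matches TGAATCA in FOXO4 and TGAGTCA in a FOXO3 window. The free bases of a pattern can be any base, so a match need not be a full site. CACCC was in 7 of 12 against 54.7% of all windows, and the GC box in 9 against 42.6%. The 4 FOXO3 windows and the pair of KLF11 windows belong to 1 gene each, so the 12 are not independent.

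KLF10 and KLF11 are the TGF-beta-inducible early gene products, zinc-finger repressors that recruit the SIN3A corepressor. KLF10 (chromosome 8, 102648784 to 102655725, minus strand) was the member that changed most. In the controls it ran from 2.61 CPM through a median of 3.09 to 3.66, and with IRF4 shRNA from 9.44 through 11.9 to 15.2. The lowest IRF4 shRNA library was thus far above the highest control. The log2 fold change was 1.94 (SE 0.14, adjusted p = 2.69e-08), or 3.84-fold, on a mean of 104 counts per control library and 433 per IRF4 shRNA library.

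The KLF10 response differed between the library series. In series 1 the controls were at 3.12, 3.37 and 3.66 CPM and the IRF4 shRNA libraries at 9.44, 9.53 and 9.90, a log2 fold change of 1.50 (SE 0.10, adjusted p = 2.5e-07). In series 2 the controls were at 2.61, 2.99 and 3.07 CPM and the IRF4 shRNA libraries at 13.9, 14.3 and 15.2, a log2 fold change of 2.33 (SE 0.11, adjusted p = 8.27e-07). All 3 IRF4 shRNA libraries of series 2 were above all 3 of series 1. The difference between the series was 0.81 (SE 0.14, adjusted p = 0.00586, edgeR interaction term). By that term 14% of all genes were called, 5.07% with a higher and 8.97% with a lower effect in series 2, and among the 10 factors KLF10 was called higher and KLF2 lower. IRF4 itself fell by 1.53 on the log2 scale in series 1 and fell by 1.05 in series 2 (difference 0.46, adjusted p = 0.0011), so KLF10 rose more in the series in which IRF4 fell less.

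KLF11 (chromosome 2, 10042849 to 10054836, plus strand) ran from 3.17 CPM through a median of 3.56 to 4.35 in the controls and from 5.08 through 5.58 to 6.51 with IRF4 shRNA. No IRF4 shRNA library was as low as any control. Its log2 fold change was 0.66 (SE 0.10, adjusted p = 4.96e-05), or 1.59-fold. The values in series 1, 0.70 (SE 0.14), and in series 2, 0.63 (SE 0.14), were alike within their errors, with a difference of -0.08 (SE 0.19, adjusted p = 0.804).

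KLF6, a widely expressed early-response activator, lies on chromosome 10 (3775996 to 3785281, minus strand). It was at 59.2 to 66.3 CPM in the controls, with a median of 63.9, and at 88.3 to 95.6 with IRF4 shRNA, with a median of 90.4. The gap between the groups was wider than the range within either. The log2 fold change was 0.53 (SE 0.04, adjusted p = 2.7e-08), or 1.44-fold, with 0.50 (SE 0.04) in series 1 and 0.57 (SE 0.05) in series 2. KLF6, KLF10, KLF11 and KLF13 kept their direction and their call in all 26 alternative analyses of the 12 libraries. KLF6 ranged there from 0.49 to 0.60, KLF10 from 1.88 to 2.01, KLF11 from 0.63 to 0.74 and KLF13 from -0.57 to -0.39.

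KLF13, which activates CCL5 in T cells and can also recruit SIN3A, was the KLF that fell. The gene (chromosome 15, 31326835 to 31435665, plus strand) was at 489 to 557 CPM in the controls, with a median of 528, and at 361 to 402 with IRF4 shRNA, with a median of 381. Every IRF4 shRNA library was below every control. Its log2 fold change was -0.47 (SE 0.04, adjusted p = 1.11e-07), or 1.38-fold lower. It was -0.41 (SE 0.04) in series 1 and -0.52 (SE 0.05) in series 2, and the difference between the series did not pass the test (-0.13, SE 0.07, adjusted p = 0.217). A processed pseudogene within the gene, UBE2CP4, had at most 5 counts in any library.

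KLF2 (chromosome 19, 16324826 to 16328685, plus strand) did not pass the test over the 12 libraries, with a log2 fold change of 0.12 (SE 0.20, adjusted p = 0.656). The controls ran from 16.2 CPM through a median of 20.1 to 35.3, and the IRF4 shRNA libraries from 20.5 through 26.3 to 30.3, so the control range held all 6 of the IRF4 shRNA values. In series 1 the controls were at 16.2, 16.8 and 22.5 CPM and the IRF4 shRNA libraries at 28.7, 29.6 and 30.3. That difference was called, at 0.67 (SE 0.11, adjusted p = 0.000255), or 1.59-fold. In series 2 the controls were at 17.7, 34.5 and 35.3 CPM and the IRF4 shRNA libraries at 20.5, 22.3 and 23.9. The lower control of series 2 lay below its IRF4 shRNA libraries and the other 2 above them, and the value of -0.38 (SE 0.23, adjusted p = 0.214) was not called. The interaction was -1.07 (SE 0.28, adjusted p = 0.024).

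KLF2 has a transcript GC content of 65.2%, above that of 97.4% of the genes tested. Within each group its level moved with the GC trend of the libraries. The GC correlations use deviations from each group's own mean, so those of the 2 groups have different baselines. Among the controls, libraries 5 and 6 had the highest GC correlations (0.42 and 0.60) and the highest KLF2, at 34.5 and 35.3 CPM. Control libraries 2 and 3, at -0.47 and -0.50, had the lowest KLF2, 16.8 and 16.2 CPM. Of the IRF4 shRNA libraries, those of series 1, at 0.24 to 0.31, had 28.7 to 30.3 CPM. Those of series 2, at -0.33 to -0.19, had 20.5 to 23.9 CPM. A smooth GC trend was also removed from each library, fitted to deviations from the mean over both groups, unlike the correlations above. It therefore also takes out any part of the group difference that follows GC. With it removed, KLF2 changed by -0.01 over the 12 libraries (adjusted p = 0.944) and by 0.09 in series 1 (adjusted p = 0.232). The interaction became -0.25 (adjusted p = 0.203). Without control libraries 5 and 6, it was called higher over the remaining 10 libraries (0.49, adjusted p = 0.00421) and in series 2 (0.33, adjusted p = 0.014), and the interaction was -0.35 (adjusted p = 0.387). Series 2 then holds a single control library, which is assumed to vary like the IRF4 shRNA libraries. Without control library 4 the series 2 value was -0.65 and was called lower. Neither a rise nor a fall of KLF2 therefore held across these settings.

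**Figure D2:**
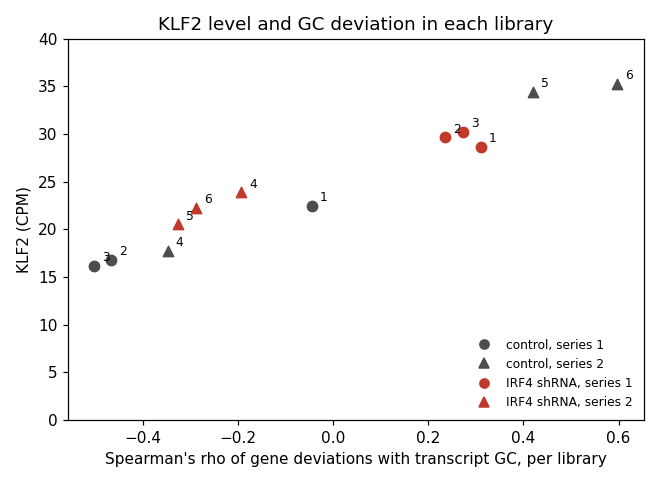
KLF2 level (CPM, vertical axis) in each of the 12 libraries, by group and series. The horizontal axis is the library's rank correlation between gene GC content and deviation from the mean of its own group (15832 genes). Horizontal positions of the 2 groups therefore have different baselines. Control libraries 5 and 6 lie at the upper right and control libraries 2 and 3 at the lower left.

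KLF3 and KLF9 are mainly repressors, KLF3 through the corepressor CtBP and KLF9 through SIN3A. KLF3 (chromosome 4, 38664197 to 38701517, plus strand) ran from 6.18 CPM through a median of 8.91 to 9.77 in the controls and from 8.17 through 9.23 to 9.87 with IRF4 shRNA, and the groups overlapped almost fully. Its log2 fold change was 0.07 (SE 0.10, adjusted p = 0.598), and neither series nor the interaction passed the test. The antisense transcript KLF3-AS1, which overlaps its start on the opposite strand, had at most 4 counts in any library.

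KLF9 (chromosome 9, 70384597 to 70414624, minus strand) was the least abundant member per length. It ran from 2.53 CPM through a median of 3.34 to 4.29 in the controls and from 3.45 through 4.07 to 4.49 with IRF4 shRNA, with overlap. The log2 fold change of 0.26 (SE 0.12, adjusted p = 0.0835) missed the threshold. It passed with scaling by library size alone (0.34, adjusted p = 0.0273), without control library 4 (0.34, adjusted p = 0.0268) and without IRF4 shRNA library 5 (0.32, adjusted p = 0.0416). In series 1 KLF9 rose from 3.0 ± 0.453 to 4.30 ± 0.301 CPM (SD, n = 3), a log2 fold change of 0.52 (SE 0.14, adjusted p = 0.0103), and in series 2 the value was 0.03 (SE 0.15, adjusted p = 0.874). The difference between the series did not pass the test (-0.50, SE 0.20, adjusted p = 0.11).

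FOXO1, the main FOXO of B cells (chromosome 13, 40555667 to 40666641, minus strand), fell slightly. It ran from 41.6 CPM through a median of 46.9 to 52.5 in the controls and from 39.2 through 41.2 to 45.2 with IRF4 shRNA, and the groups overlapped. The log2 fold change was -0.16 (SE 0.06, adjusted p = 0.0274), or 1.12-fold lower. In series 1 the controls were at 46.8, 47.5 and 52.5 CPM and the IRF4 shRNA libraries at 39.2, 39.9 and 42.1, without overlap (-0.28, SE 0.06, adjusted p = 0.00141). In series 2 the value was -0.03 (SE 0.07, adjusted p = 0.747), and the difference between the series was 0.23 (SE 0.09, adjusted p = 0.104). The call over the 12 libraries held in 15 of 26 alternatives and was lost in 11. Among the 11 losses were scaling by library size alone (-0.09, adjusted p = 0.226) and counts summed per group and series (-0.15, adjusted p = 0.256). The call was also lost on leaving out control library 2 or 3 (adjusted p = 0.051 and 0.0602) or IRF4 shRNA library 1, 2, 3, 5 or 6 (adjusted p = 0.0531 to 0.0805). FOXO1 was further from 0 and still called without control libraries 5 and 6 (-0.23, adjusted p = 0.00155) and with the GC trend removed (-0.19, adjusted p = 0.00422). Without those libraries its series 2 value was -0.14 (adjusted p = 0.139) and the difference between the series 0.13 (adjusted p = 0.588). AL133318.1, a non-coding gene that overlaps FOXO1 on the same strand, had 0.098 to 74.5 counts, against a mean of 1532 counts for FOXO1 in the controls.

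FOXO3 and FOXO4, which share the FOXO1 binding motif, rose by about the same amount. FOXO3 (chromosome 6, 108559835 to 108684774, plus strand) was at 15.9 to 17.9 CPM in the controls, with a median of 16.9, and at 19.1 to 20.9 with IRF4 shRNA, with a median of 19.4. The groups did not overlap, and the log2 fold change was 0.21 (SE 0.04, adjusted p = 0.00104), or 1.16-fold. It was 0.20 (SE 0.07, adjusted p = 0.0269) in series 1 and 0.24 (SE 0.07, adjusted p = 0.0267) in series 2. These per-series calls for FOXO3 were lost with DESeq2 (adjusted p = 0.0653 and 0.0602). The series 1 call was also lost without control library 2 or 3 or IRF4 shRNA library 1 or 2, at log2 fold changes of 0.16 to 0.21, and the series 2 call without control library 5 or 6 or IRF4 shRNA library 4, 5 or 6, at 0.20 to 0.25. Without both control libraries 5 and 6 the series 2 value was 0.19 (adjusted p = 0.111). With counts summed per group and series the 12-library call was lost (0.22, adjusted p = 0.129).

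FOXO3 has a near-identical copy, FOXO3B, on chromosome 17, so the split of reads between them is uncertain. FOXO3B was at 2.07 ± 0.239 CPM (SD, n = 6) in the controls and 1.79 ± 0.192 with IRF4 shRNA (log2 fold change -0.21, SE 0.11, adjusted p = 0.15), and took 7.43% to 13% of the sum of the pair. The sum was 18.3 to 19.6 CPM in the controls and 20.8 to 22.7 with IRF4 shRNA, 1.13 times higher and again without overlap.

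FOXO4 (chromosome X, 71095851 to 71103532, plus strand) ran from 12.7 CPM through a median of 13.6 to 15 in the controls and from 14.7 through 16 to 17.5 with IRF4 shRNA, so the highest control lay within the IRF4 shRNA range. Its log2 fold change was 0.21 (SE 0.06, adjusted p = 0.00954), or 1.16-fold. Within each series the groups did not overlap, with 0.29 (SE 0.08, adjusted p = 0.0076) in series 1 and 0.14 (SE 0.08, adjusted p = 0.205) in series 2. FOXO4 has 56.0% GC, above 75.2% of the genes tested. With the GC trend removed its value was 0.13 and missed the threshold (adjusted p = 0.0513), and in series 1 it was 0.14 (adjusted p = 0.143). That removal also takes out any part of the group difference that follows GC. The 12-library call was also lost with counts summed per group and series (0.22, adjusted p = 0.191).

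**Figure D3:**
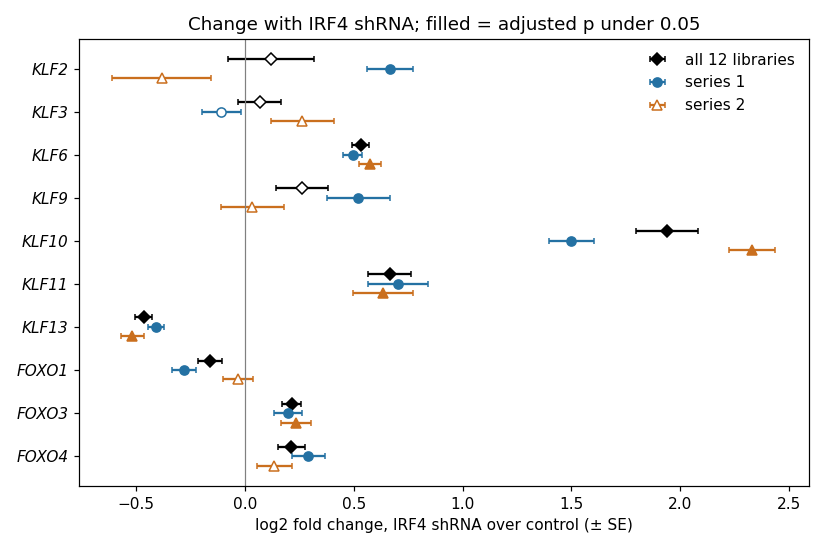
Log2 fold change of each factor (IRF4 shRNA over control, points, filled where the adjusted p was under 0.05, with bars of 1 SE) over all 12 libraries, in series 1 and in series 2. KLF10 stands at 1.94 over 12 libraries, with 1.50 in series 1 and 2.33 in series 2, and KLF2 lies above 0 in series 1 and below 0 in series 2.

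By series, 7 of the 10 factors rose and 2 fell in series 1, where 50.5% of all 16572 genes tested were called (25.8% higher, 24.6% lower), and the median over the 10 was 0.39. In series 2, 4 rose and 1 fell, with 38.1% of 16614 genes called (20.2% higher, 17.9% lower) and a median of 0.19. The groups did not overlap for 9 members in series 1, against 58.2% of all genes, and for 6 in series 2, against 50.3%. KLF6, KLF10, KLF11, KLF13, FOXO3 and FOXO4 were separated in the same direction in both series. By the interaction, 4 of the 10 had an unadjusted p under 0.05, against 31.6% of all genes, and 2 passed after adjustment, against 14%.

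Without control libraries 5 and 6, KLF6 (0.49), KLF10 (1.91), KLF11 (0.72), FOXO3 (0.19) and FOXO4 (0.22) were still called higher over the remaining 10 libraries and KLF13 (-0.47) and FOXO1 (-0.23) lower, while KLF3 (-0.03) and KLF9 (0.30) were not called. In series 2, where 35.4% of genes were then called, the call of FOXO3 was lost and that of KLF2 gained, and KLF6 (0.50), KLF10 (2.47), KLF11 (0.68) and KLF13 (-0.56) kept theirs. The KLF10 difference between the series was 0.96 (SE 0.18, adjusted p = 0.0151), the 1 difference among the 10 factors that was called, where 1.23% of all genes were.

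Levels were compared between genes as CPM per kilobase of the longest annotated transcript. In the controls KLF13 stood highest at 76.7 ± 3.68 (SD, n = 6), followed by KLF6 at 13.5 ± 0.649, KLF2 at 11.8 ± 4.38 and FOXO1 at 8.08 ± 0.67. FOXO4 followed at 4.18 ± 0.254, FOXO3 at 2.30 ± 0.0886 and KLF3 at 1.70 ± 0.257, and the last were KLF11 at 0.892 ± 0.11, KLF10 at 0.857 ± 0.0977 and KLF9 at 0.658 ± 0.121. The ranges of neighbours overlapped for KLF6 and KLF2, KLF2 and FOXO1, KLF11 and KLF10, and KLF10 and KLF9. With IRF4 shRNA, KLF10 stood at 3.29 ± 0.732 and moved from rank 9 to rank 6 over all libraries, with FOXO3 next at 2.67 ± 0.0949. The order of this pair differed by series: in series 1 KLF10 stood at 2.58 to 2.71 and FOXO3 at 2.62 to 2.85, overlapping, with KLF10 at rank 7, and in series 2 KLF10 stood at 3.79 to 4.15, above FOXO3 at 2.60 to 2.68. KLF13 stayed highest at 55.5 ± 2.36 and KLF6 was at 19.5 ± 0.628. Summed over the 7 KLF members, the level per kilobase was 106 ± 5.27 in the controls and 95.2 ± 4.13 with IRF4 shRNA, and the share of KLF13 in it was 72.3% ± 2.65 and 58.4% ± 0.388. The 3 FOXO members summed to 14.6 ± 0.638 and 14.7 ± 0.353, with a FOXO1 share of 55.4% ± 2.51 and 49.0% ± 2.32.

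**Figure D4:**
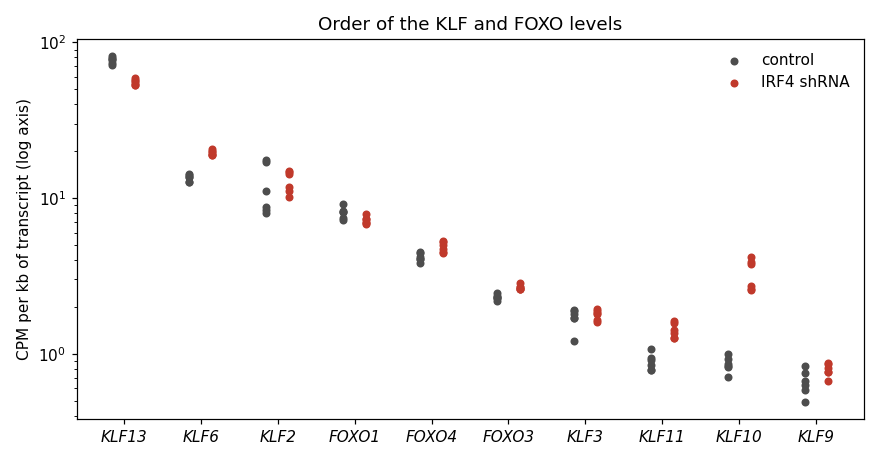
Level per kilobase of transcript of the 10 factors (CPM per kilobase, log axis) in the control and IRF4 shRNA libraries, with 1 point per library. KLF13 is highest in both groups, and with IRF4 shRNA the KLF10 libraries of series 2 lie above FOXO3 while those of series 1 overlap it.

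The genes whose pattern over the 12 libraries was most like that of KLF10 were CNR1, a cannabinoid receptor, CD274, the ligand of the checkpoint receptor PD-1, and SAMD9L, an interferon-inducible gene. The measure was the root mean square difference of log2 CPM centred per gene, over 13831 genes at a mean of at least 1 CPM, and it was 0.162 for CNR1, 0.193 for CD274 and 0.204 for SAMD9L. CNR1 was at 11.3 ± 1.18 CPM (SD, n = 6) in the controls and 41.6 ± 3.81 with IRF4 shRNA, and CD274 at 32.7 ± 2.06 and 120 ± 6.04. SAMD9L was at 90.5 ± 8.89 and 330 ± 25.0 CPM. For KLF11 the nearest were WDR91, an endosomal protein (0.108), CYBRD1, an iron reductase (0.125), and KCTD12, a GABA-B receptor subunit (0.129).

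Genes known as FOXO targets were described as a list. The counts of this and the following lists are read against the shares of all genes tested, 24.2% higher and 23.9% lower. Without control libraries 5 and 6 those shares were 26.4% and 25.4%. Of 28 tested 12 rose and 3 fell, with a median log2 fold change of 0.22. TXNIP, which inhibits thioredoxin and glucose uptake, rose from 2.05 ± 0.247 CPM (SD, n = 6) to 160 ± 5.78, a 77.9-fold change, while FOXO1 fell and FOXO3 and FOXO4 rose 1.16-fold each. TNFSF10, the death ligand TRAIL, rose 2.82-fold from 1.48 ± 0.14 to 4.17 ± 0.787. The mitophagy gene BNIP3 fell 1.33-fold. Without control libraries 5 and 6 the list had 15 rises and 6 falls.

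Among 11 lymphocyte trafficking genes, the group that holds the best-known KLF2 targets, 7 rose and 3 fell, with a median of 0.37. S1PR1 rose from 54.4 ± 4.15 to 62.1 ± 6.6 CPM (log2 fold change 0.19, SE 0.07, adjusted p = 0.0355). ITGB7, an integrin chain for homing to gut, fell 1.50-fold from 21.9 ± 1.49 to 14.6 ± 1.35 CPM, so these KLF2 targets did not move in 1 direction. CD69, which draws S1PR1 from the cell surface, rose 7.66-fold from 2.41 ± 0.234 to 18.5 ± 0.314 CPM. The integrin chain ITGA4 rose 2.92-fold and the confinement receptor S1PR2 rose 2.85-fold, while the chemokine receptor CXCR4 fell 1.68-fold from 234 ± 17.0 to 140 ± 11.4 CPM. CCR7, the receptor for homing to T cell zones, rose 1.66-fold.

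Of 30 quiescence and anti-proliferative genes tested 11 rose and 4 fell, with a median of 0.10. The list shares members with the FOXO targets, among them RBL2 and CDKN1B. ZFP36L1, which promotes decay of messenger RNA, rose 3.40-fold from 72.7 ± 7.24 to 247 ± 15.9 CPM. The anti-proliferative TOB1 rose 1.96-fold and BTG2 rose 1.48-fold, and the translation inhibitor PDCD4 rose 1.60-fold from 463 ± 27.1 to 741 ± 23.2 CPM. There were 15 rises and 7 falls without control libraries 5 and 6. Of 15 proliferation genes 4 rose and 7 fell, with a median of -0.06. CCND2 fell 1.42-fold from 560 ± 24.1 to 394 ± 29.1 CPM, whereas CCND3 rose 1.98-fold, CCNE1 rose 1.58-fold and the replication clamp PCNA rose 1.36-fold. MKI67, the proliferation marker Ki-67, was at 528 ± 50.7 and 508 ± 29.9 CPM (-0.06, adjusted p = 0.448).

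Upstream of the FOXO proteins, 9 of 27 kinases and regulators rose and 8 fell, with a median of 0.04. SGK1, a kinase that phosphorylates FOXO3, rose 1.57-fold from 27.7 ± 3.2 to 43.4 ± 2.73 CPM, and AKT2 rose 1.35-fold. The phosphatase INPP5D (SHIP1), which opposes PI3K, rose 1.16-fold, and the lymphocyte PI3K subunit PIK3CD fell 1.23-fold from 356 ± 13.7 to 289 ± 19.9 CPM. Upstream of KLF2, 4 of 10 genes of the MEK5, ERK5 and MEF2 route and of KLF2 degradation rose and 3 fell, with a median of 0.04. MAP2K5 (MEK5) rose 1.42-fold, MEF2C rose 1.33-fold from 80.2 ± 8.98 to 106 ± 5.51 CPM and MEF2D rose 1.24-fold. FBXW7, which marks KLF2 for degradation, fell 1.19-fold. The KLF2 promoter sequence holds the MEF2 motif shown in capitals. KLF2 itself was not called by edgeR over the 12 libraries (0.12, adjusted p = 0.656), and a link of these genes to KLF2 was not tested.

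**Figure D5:**
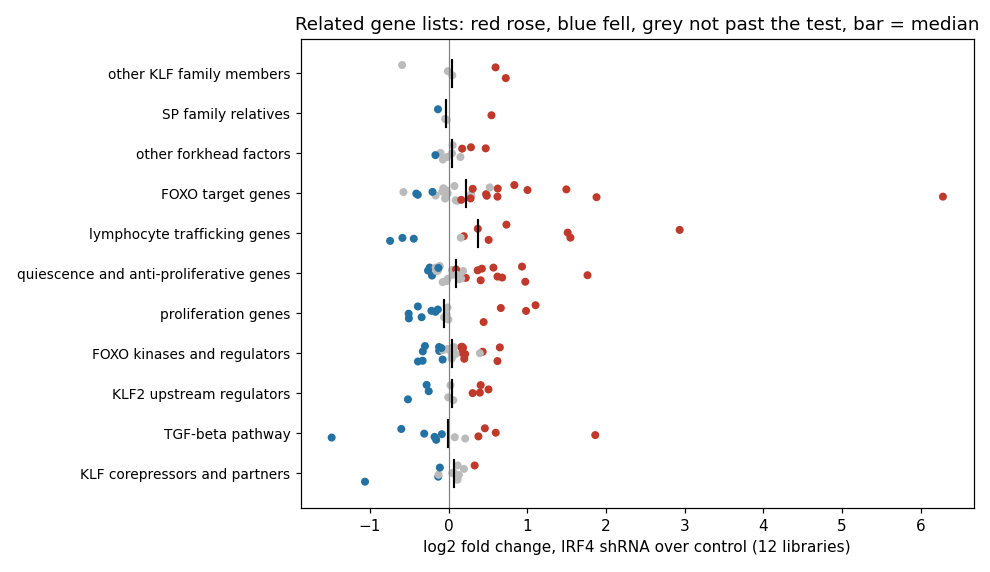
Log2 fold change over 12 libraries (IRF4 shRNA over control) of each tested gene in the related lists, 1 row per list, with called genes in red (rose) or blue (fell), the others in grey and the list's median as a bar. The list medians lie between -0.06 and 0.37, with TXNIP as the farthest point on the right.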

How the data were processed

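Poly(A) RNA of 12 TMD8 libraries was measured with a stranded TruSeq kit and paired-end reads, per the labels' protocols. The authors deposited 1 table of estimated counts per gene without normalization. STAR, HTSeq and hg38 are named in the submitters' processing notes. Versions, annotation and use of strand are not given in the sources used here. Of the values, 66.6% were whole (tolerance 1e-06), and fractional counting can split reads between near-identical genes.

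Counts were rounded and tested with edgeR 4.0.16 in R 4.3.3: quasi-likelihood test without robust estimation, TMM scaling, filterByExpr with a minimum count of 10, Benjamini-Hochberg threshold 0.05. Positive values are higher with IRF4 shRNA. Levels are CPM on TMM-scaled library sizes. SE is the log2 fold change over the square root of F. Gene lengths and GC contents came from GENCODE release 29, and promoters from RefSeq (GRCh38.p14). Library totals of 31.3 to 38.2 times 1e6 counts set the precision, and the count limits cover counting error only. The fits were tested on simulated counts in which far fewer genes changed than were called here. A log2 change of 0.5 was recovered in 64% of cases over 12 libraries, 43% in series 1 and 47% in series 2. By the interaction it was 32%. False calls were 5% of calls over 12 libraries, 11.0% in series 1, 7.35% in series 2 and 4.63% by the interaction.

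The members, gene lists and tests were chosen with earlier results of these data known. Named from each list were up to 4 genes with the smallest p past the threshold, others only where their role is described (some genes the rule names are not reported here), and the 3 genes nearest in pattern to each of the 2 most changed members. Genes that share reads with or overlap a member were added after the data were seen. Alternatives were DESeq2 1.42.0 tests and size factors, other filters, robust estimation, GC trend removal (spline with 5 degrees of freedom), replicate blocks, summed counts and left-out libraries. The GC trend was fitted to each library's deviation from the mean over the libraries of both groups. Same-numbered libraries within a series did not deviate together.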

Additional observations from a re-analysis of the deposited data

Results flagged for a closer look

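Among the 10 factors, the effect of IRF4 shRNA differed between the library series for KLF10 (interaction 0.813, adjusted p = 0.00586 by edgeR) and KLF2 (interaction -1.066, adjusted p = 0.024). The KLF2 level moved with the GC trend of the libraries within each group. With a GC trend fitted over both groups removed, its interaction was -0.25 (adjusted p = 0.203). IRF4 itself also differed (interaction 0.463, adjusted p = 0.0011), being lower in the IRF4 shRNA libraries of series 1.

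A single library lay apart from the other 5 of its group for 2 of the factors. KLF3 was at 6.18 CPM in control library 6 and at 8.65 to 9.77 in the other controls, a gap of 0.686 of the whole range. FOXO3 was at 20.9 CPM in IRF4 shRNA library 2 and at 19.1 to 19.7 in the others, also a gap of 0.686 of the range. From each list only the up to 4 genes with the smallest p past the threshold were checked. Of these, a library stood apart for KLF5 (IRF4 shRNA library 6, 0.763 CPM, gap 0.649) and TXNIP (IRF4 shRNA library 5, 172 CPM, gap 0.755). For PCNA (control library 1, 96.3 CPM, gap 0.647) and CCND3 (control library 6, 20.1 CPM, gap 0.746) a library also stood apart. These are 6 of 104 groups tested, and chance marks about 1 in 20.

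Of each list only the up to 4 genes with the smallest p past the threshold were checked here. The edgeR interaction term also called list genes outside this check. Among them were 3 of 11 lymphocyte trafficking genes (3 higher, 0 lower), where 14% of all genes were called. Counting checked genes too, 2 were higher and 2 lower of 10 other forkhead factors, of 10 KLF2 upstream regulators and of 11 corepressors and partners. Of 30 quiescence genes 3 were higher and 3 lower. These list counts were not repeated without control libraries 5 and 6. Of the genes checked, the effect differed between the series by that term for CCND2 (0.256, adjusted p = 0.016) and CCND3 (-0.503, adjusted p = 0.0131). It also differed for PIK3CD (-0.237, adjusted p = 0.0197) and AKT2 (-0.28, adjusted p = 0.0323). FBXW7 (0.211, adjusted p = 0.0479), TGFBR2 (0.29, adjusted p = 0.0137), TGIF1 (0.422, adjusted p = 0.00167) and NCOR1 (0.213, adjusted p = 0.0465) differed as well. A positive value means a higher effect in series 2. Without control libraries 5 and 6, TGIF1 (0.38, adjusted p = 0.00661) was still called among these 8 list genes and the other 7 were not, NCOR1 being at 0.11 (adjusted p = 0.402).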

How the results depend on the processing

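Over the 12 libraries 7918 genes and 7 of the 10 factors were called, and with counts summed per group and series 4242 genes and 4 factors. Leaving out single libraries gave 7544 to 8209 genes and 6 to 8 factors. It gave 7183 to 9194 genes and 8 to 9 factors in series 1, and 4444 to 8611 genes and 4 to 6 factors in series 2. The interaction called 2308 genes and 2 factors, and 736 to 5357 genes and 1 to 3 factors with single libraries left out. It called 1399 genes and 1 factor with the GC trend removed, 206 genes and 1 factor without control libraries 5 and 6, and 1 factor with robust estimation. The cause was not tested.

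Signs turned for 21 of 820 recomputed values of the factors. Over the 12 libraries these were KLF2 with the GC trend removed (-0.0067) and KLF3 without control libraries 5 and 6 (-0.035) or 6 alone (range without single libraries -0.014 to 0.113). In series 2 they were FOXO1 with library size alone (0.035), without control library 4 or IRF4 shRNA library 5 (range -0.080 to 0.0089), and KLF2 without control libraries 5 and 6 (0.33). KLF9 turned there with the GC trend removed (-0.022, and -0.020 with a replicate block), without control libraries 5 and 6 (-0.15), and without control library 5 or IRF4 shRNA library 6 (range -0.081 to 0.114). In the interaction, FOXO3 turned with a minimum count of 50 (-0.0038), without control libraries 5 and 6 (-0.014), and without control library 1 or 6 or IRF4 shRNA library 3 (range -0.011 to 0.054). KLF13 turned with the GC trend removed (0.086), KLF6 without control libraries 5 and 6 (-0.0095), and KLF11 without control library 5 or IRF4 shRNA library 1 (range -0.171 to 0.020). Of these values the KLF2 one of 0.33 passed the threshold and the others did not.

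Counts of list genes also moved, and so did those of all genes tested. Over all genes, rises went from 3983 to 5257 and falls from 3935 to 2968 with library size alone. With the GC trend removed, rises went to 3838 and falls to 5271. With summed counts 4242 genes were called in place of 7918. The list counts below are read against these. With library size alone falls went from 4 to 2 in the quiescence list, 7 to 4 in proliferation, 8 to 4 in FOXO kinases, 6 to 3 in TGF-beta, 3 to 1 in corepressors and 1 to 0 in the SP and forkhead lists, and rises from 3 to 6 in the forkhead list and 1 to 4 in corepressors. With the GC trend removed falls went from 3 to 8 in FOXO targets, 4 to 8 in quiescence and 1 to 4 in forkhead. With summed counts falls went from 4 to 1 in quiescence, 7 to 4 in proliferation, 8 to 2 in FOXO kinases (rises 9 to 3), 6 to 2 in TGF-beta and 3 to 1 in corepressors. With a replicate block falls in quiescence went from 4 to 2.

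The replicate numbers did not pair the libraries: same-numbered libraries correlated at -0.074 to 0.022 in their deviations within a series. With the title number as a replicate block, 6942 genes and 6 factors were called over the 12 libraries (FOXO1 lost its call, adjusted p = 0.0665), and with the number in the library name 6918 genes. The FOXO3 call in series 2 was lost with either block (0.24, adjusted p = 0.0778 and 0.0712). Low counts limit KLF9, KLF10 and KLF11, with means of 104 to 119 counts per control library.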

Other observations

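Of the other KLF genes 8 were in the table and 5 were tested, 2 of which rose and 0 fell, with a median log2 fold change of 0.05 (0.24 in series 1 and 0.17 in series 2). KLF8, a repressor that binds CtBP, rose 1.51-fold from 28.2 ± 2.8 to 42.6 ± 2.04 CPM (SD, n = 6), and KLF5 rose 1.65-fold from 0.638 ± 0.18 to 1.06 ± 0.155 CPM. Of 4 SP factors tested SP4 rose 1.46-fold and SP2 fell 1.10-fold, with a median of -0.04. The SP2 call was lost in 15 of 26 alternatives. Of 10 other forkhead factors 3 rose and 1 fell, with a median of 0.05. Over all genes tested 24.2% rose and 23.9% fell. FOXN3, a repressor of the cell cycle, rose 1.22-fold from 247 ± 16 to 300 ± 3.68 CPM, FOXP2 rose 1.39-fold and FOXJ2 rose 1.13-fold. FOXM1, which drives mitotic genes, fell 1.12-fold from 53.4 ± 2.78 to 47.6 ± 2.58 CPM. The forkhead list had 1 rise and 2 falls without control libraries 5 and 6.

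KLF10 and KLF11 are TGF-beta-inducible, and of 12 genes of that pathway 4 rose and 6 fell, with a median of -0.01. The receptor TGFBR2 rose 1.38-fold from 134 ± 7.65 to 184 ± 12.9 CPM. The feedback inhibitor SMAD7 rose 3.64-fold from 0.192 ± 0.045 to 0.708 ± 0.13 CPM. Its control level was near the limit of 0.0786 to 0.0959 CPM at which 3 counts stand. The SMAD corepressor SKIL fell 2.80-fold and TGIF1 fell 1.52-fold. Of 11 corepressors and partners of KLF proteins 1 rose (HDAC1, 1.26-fold, from 57.3 ± 1.65 to 72.0 ± 1.17 CPM) and 3 fell (HDAC2, NCOR1 and CTBP2), with a median of 0.06. The NCOR1 call was lost in 16 of 26 alternatives and the HDAC2 call in 7. The corepressor list had 3 rises without control libraries 5 and 6.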
